A study of Homo sapiens with 8 samples.

Results

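Compound C and phenformin were compared with each other in HT1080 cells, a human fibrosarcoma line, while the cells were under the glucose analog 2-deoxy-D-glucose (2DG). The comparison is the log2 level on the array of cells given 2DG and compound C (2DG+CC) minus that on the array of cells given 2DG and phenformin (2DG+Phen). It covers the 15503 probe sets, of 54675 on the array, that reached a log2 level of 6 on at least 1 of the 8 arrays of the series, after 62 control probe sets were set aside. They name 8429 genes. Among 400 probe sets whose highest level was between 6.0 and 6.1 the median difference was 0.01, with a range from −3.51 to 3.79, and among 440 between 5.9 and 6.0 it was 0.02, with a range from −2.74 to 4.08.

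The 8 arrays (Affymetrix Human Genome U133 Plus 2.0) held 1 sample each. In normal growth medium these were the untreated control, 10 µM compound C (CC), 10 µM versipelostatin (VST) and 100 µM phenformin (Phen), and in 10 mM 2DG they were 2DG alone, 2DG+CC, 2DG+VST and 2DG+Phen at the same doses. All cells were harvested at 18 h in glucose-containing medium, and the compounds went in shortly before 2DG. Compound C was dissolved in dimethyl sulfoxide and phenformin in water, and their doses differ, so compound, dose and solvent cannot be told apart. Each condition has 1 array of 1 cell line, so no difference given here has a replicate check, an error or a p-value, and the number of arrays limits the precision.

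2DG competes with glucose for uptake and glycolysis and also disturbs the glycosylation of proteins in the endoplasmic reticulum (ER). Cells answer with the unfolded protein response (UPR), in which the ER sensors PERK, IRE1 and ATF6 act through the transcription factors ATF4, XBP1 and cleaved ATF6 to raise chaperones, amino acid transporters and synthesis enzymes. Compound C, also called dorsomorphin, is a kinase inhibitor used against AMP-activated protein kinase (AMPK) and against the type I receptors of bone morphogenetic proteins (BMP). Phenformin is a biguanide that inhibits respiratory complex I, and it can activate AMPK. The study used both as inhibitors of the UPR, and the comparison asks how far the transcripts they leave in 2DG differ.

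All levels are log2 values, and a difference of 1 stands for 2-fold. Levels lower than the array's own median, computed without the control probe sets, counted as not above background, and a difference that involves one is given as a bound. The array medians over the 15503 probe sets were between 7.01 and 7.35. Of 15 fibroblast and mesenchymal markers, 10 reached 6 (VIM, 13.24 to 13.65), as did 2 of 12 epithelial markers (KRT8 and KRT18), 1 of 7 haematopoietic markers (HBB, at most 6.01) and 0 of 6 endothelial markers. Poly-A controls, the spiked-in transcripts that go through labelling with the RNA, read 7.41 on the 2DG+CC array and 6.81 on the 2DG+Phen array, against 6.04 on the control array. Scaling the arrays on these controls lowers every difference between 2DG+CC and 2DG+Phen by 0.60, and scaling on the hybridization controls lowers it by 0.13. Any value above 0 but under 0.60 is therefore negative on the poly-A scale, also where this is not repeated below. In normal growth the same scalings raise the difference by 0.18 and lower it by 0.04. Poly-A scaling also lowers the differences of 2DG+CC and 2DG+Phen from 2DG alone, by 1.04 and 0.44. The part of these shifts in the results was not tested.

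In 2DG, 2072 probe sets (13.4%) were higher by 2-fold or more under compound C than under phenformin, and 2174 (14.0%) were lower by as much. Scaled on the poly-A controls the counts became 1006 and 4640, so that the higher ones made up 17.8% of those past 2-fold in place of 48.8%. Counted by genes, on the brightest probe set, 985 (11.7%) were higher and 1153 (13.7%) lower, and on the poly-A scale 460 (5.46%) and 2581 (30.6%). The counts of each gene list below are to be read against these shares, the first pair for deposited values and the second for counts on the poly-A scale. Of the 2138 genes past 2-fold, 19 had a bound under 2-fold because 1 of the arrays was not above background. The median difference was 0.03 and the SD over probe sets 1.12. Differences were most frequent at low levels. The level here is the mean over the 2DG+CC and 2DG+Phen arrays. Of probe sets with a mean level below 5, 13.8% were higher and 28.8% lower. Between 5 and 6 the shares were 19.5% and 19.3%, and at 10 or more 3.40% and 3.54%.

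The 2DG+VST and 2DG+Phen arrays were close to each other, and the 2DG+CC and 2DG arrays were far from both. The root mean square difference over the 15503 probe sets was 1.12 between 2DG+CC and 2DG+Phen and 1.18 between 2DG+CC and 2DG+VST, but 0.498 between 2DG+VST and 2DG+Phen. From 2DG alone, 2DG+CC was 1.27 away, 2DG+VST 1.05 and 2DG+Phen 1.08. In normal growth, compound C and phenformin were 0.647 apart.

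**Figure D1:**
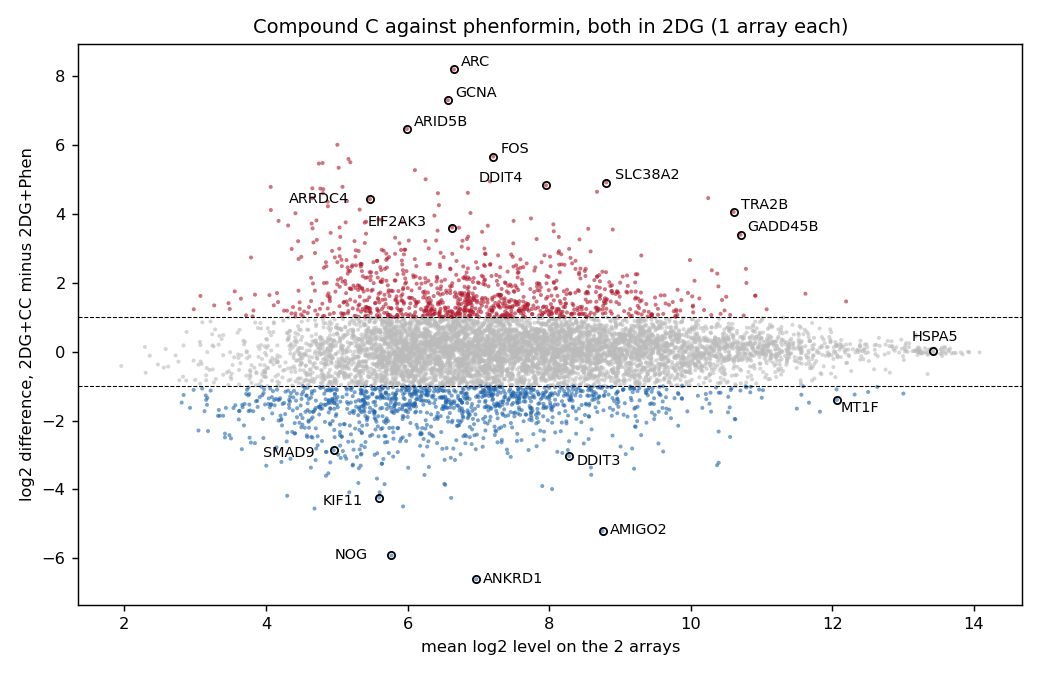
Log2 difference between 2DG+CC and 2DG+Phen (y axis) against the mean log2 level on the 2 arrays (x axis) for each of the 8429 genes, 1 array per condition, with genes at least 2-fold higher in red and at least 2-fold lower in blue. The spread narrows toward high levels, and HSPA5 lies at 0.01 while ARC and ANKRD1 mark the ends; under poly-A scaling every point moves down by 0.60.

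Genes of mitosis were lower with compound C than with phenformin. Of 42 measured, 26 were at least 2-fold lower and 0 higher, with a median of −1.28, beside 13.7% of all genes lower and a median of 0.01. Scaled on the poly-A controls 32 were lower, and on the hybridization controls 27. The median difference of the same genes in normal growth was −0.13. For 30 of the 42 the 2DG+CC array held the lowest of the 8 levels, which was so for 31.2% of all genes. Their median level was 9.10 in control cells, 8.19 in 2DG, 7.18 in 2DG+CC, 8.89 in 2DG+VST and 8.64 in 2DG+Phen. On these deposited values the 2 compounds lay on either side of 2DG alone. The median difference from 2DG alone was −0.68 with compound C and 0.63 with phenformin. Poly-A scaling lowers these by 1.04 and 0.44, which leaves phenformin little above 2DG alone.

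KIF11, the motor that pushes spindle poles apart, read 8.44 in control cells, 7.5 with CC, 7.27 with VST, 7.60 with Phen, 6.88 in 2DG, 3.48 in 2DG+CC, 7.91 in 2DG+VST and 7.72 in 2DG+Phen. Its difference of −4.24 came from the 2DG+CC array, where it was far below the range of the other arrays. Cyclin A2 (CCNA2), which drives S phase and mitotic entry, differed by −2.94, the kinetochore protein NDC80 by −2.84 and the centrosomal kinase NEK2 by −2.63. In normal growth these 4 differed by −0.09, −0.85, −0.05 and −0.12.

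Many promoters of mitosis genes carry the cell cycle genes homology region (CHR), which the DREAM and MuvB complexes bind, near a CCAAT box, which NF-Y binds. The letters searched were TTTGAA and CCAAT, on both strands, from 250 bases before to 50 bases after the start of each gene in RefSeq (GRCh38.p14). Of the 42 mitosis genes 35 had a promoter entry, and 22 of these (62.9%) held TTTGAA and 27 (77.1%) CCAAT. The shares were 10.1% and 37.4% among 7077 promoters of measured genes. Among all 27305 RefSeq promoters they were 15.4% and 35.7%. Within the list the element did not sort the genes by their difference, as 14 of 23 lower ones and 8 of 12 others held TTTGAA. Over all genes TTTGAA was found in 15.3% of 974 promoters of genes lower with compound C, 10.5% of 819 of genes higher and 9.05% of 5284 of the rest. Without the mitosis genes the first share was 14.2%.

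The 150 bases before the start are shown for 5 lower mitosis genes that hold both elements there, to let the spacing be seen. Not every lower mitosis gene was considered for this, so these need not be the 5 with the largest differences. They were chosen after their values were seen. Capitals mark TTTGAA and CCAAT on either strand, the latter pair reading TTCAAA and ATTGG on the opposite one. KIF11 lies at chr10:92592980-92593129 (plus strand), ECT2 at chr3:172750576-172750725 (plus), DLGAP5 at chr14:55191586-55191735 (minus), HMMR at chr5:163460482-163460631 (plus) and CCNB2 at chr15:59104996-59105145 (plus).
KIF11: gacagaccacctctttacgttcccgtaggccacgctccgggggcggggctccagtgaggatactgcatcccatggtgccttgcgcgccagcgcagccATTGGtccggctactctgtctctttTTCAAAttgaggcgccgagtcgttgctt
ECT2: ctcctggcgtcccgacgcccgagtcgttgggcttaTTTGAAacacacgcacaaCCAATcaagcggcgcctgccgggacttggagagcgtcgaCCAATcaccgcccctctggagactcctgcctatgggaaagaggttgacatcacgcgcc
DLGAP5: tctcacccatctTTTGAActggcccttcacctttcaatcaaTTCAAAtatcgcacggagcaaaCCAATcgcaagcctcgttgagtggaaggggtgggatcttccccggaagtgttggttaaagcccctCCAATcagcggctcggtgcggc
HMMR: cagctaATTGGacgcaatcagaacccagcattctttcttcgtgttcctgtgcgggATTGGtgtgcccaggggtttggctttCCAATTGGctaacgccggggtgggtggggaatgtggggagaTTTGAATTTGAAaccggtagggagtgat
CCNB2: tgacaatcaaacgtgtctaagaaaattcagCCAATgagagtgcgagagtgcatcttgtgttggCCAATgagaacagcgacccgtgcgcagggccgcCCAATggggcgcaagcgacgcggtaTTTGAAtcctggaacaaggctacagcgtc
In KIF11, HMMR and CCNB2 a CHR begins 28, 28 and 29 bases before the start. In ECT2 it begins 115 bases before, and in DLGAP5 138 and 109 bases before. The difference of ECT2, a regulator of cytokinesis, was −1.77, those of the spindle proteins DLGAP5 and HMMR were −1.5 and −1.40, and that of cyclin B2 (CCNB2) was −1.18.

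Among genes of DNA replication and S phase, 12 of 42 (28.6%) were at least 2-fold lower, beside 13.7% of all genes, and 2 were higher. Scaled on poly-A controls, 25 were lower and 0 higher. The median was −0.60 (−1.21 on the poly-A scale) and 0.16 in normal growth. POLD3, a subunit of DNA polymerase delta, read 7.05 in control cells, 6.94 in 2DG, 3.39 in 2DG+CC, 6.08 in 2DG+VST and 6.30 in 2DG+Phen. The licensing factors CDT1 and CDC6 differed by −2.01 and −1.80 and MCM10, which helps to start the replication fork, by −1.71. Among G1 cyclins and inhibitors of cyclin-dependent kinases, 4 of 17 were lower and 4 higher (8 and 3 on the poly-A scale). E2F3, a transcription factor of S phase entry, differed by −2.94 (−1.23 on its other probe set), and the inhibitors CDKN2D (p19) and CDKN1A (p21) by 2.45 and 1.81.

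ER chaperones did not separate the compounds as a group. Of 27 measured, 2 were past 2-fold on the lower side and 0 on the higher (6 and 0 on the poly-A scale). Their median of −0.11 became 0.09 without probe sets that may match several transcripts and −0.71 on the poly-A scale. The median level was 9.0 in control cells, 10.06 in 2DG, 8.97 in 2DG+CC and 9.49 in 2DG+Phen, so both compounds lay below 2DG alone. HSPA5, which encodes GRP78, read 11.19 in control cells, 10.58 with CC, 11.55 with VST, 11.28 with Phen, 12.89 in 2DG, 13.42 in 2DG+CC, 12.33 in 2DG+VST and 13.41 in 2DG+Phen. The difference was 0.01 on this probe set and 0.60 on its dimmer one. HSP90B1, which encodes GRP94, differed by −1.0 (−0.68 on its dimmer probe set) and DNAJB9, a co-chaperone of GRP78, by −2.56 (with −4.01 as the lowest of its 3 probe sets). ERP44 and QSOX1, both of disulfide formation, differed by −0.82 and 0.81.

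**Figure D2:**
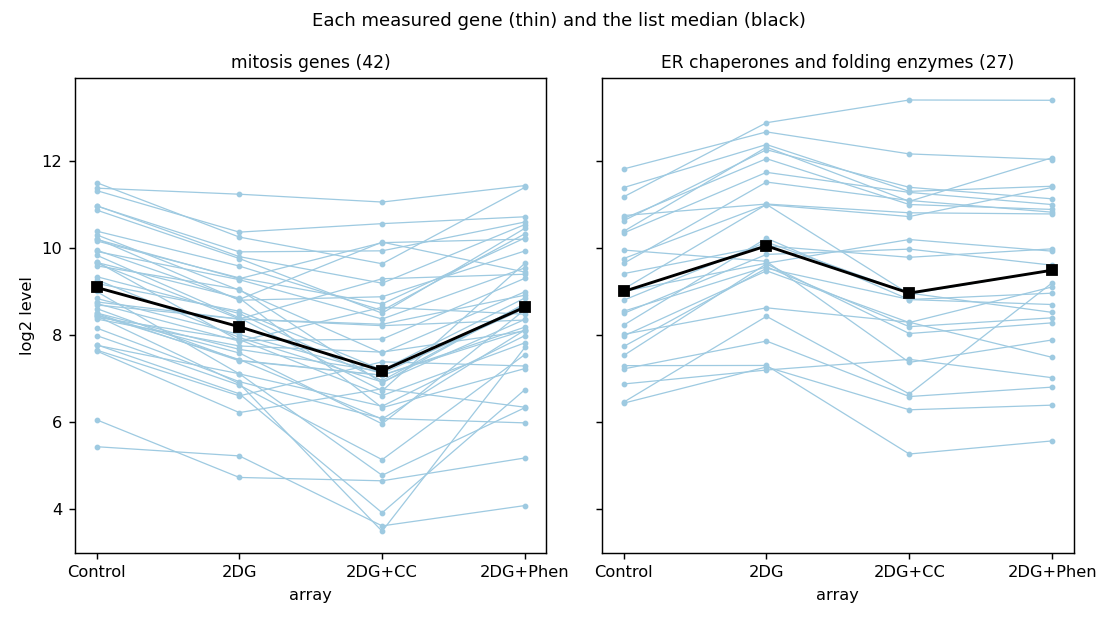
Log2 level (y axis) of each measured gene (thin lines) and the list median (black squares) on the control, 2DG, 2DG+CC and 2DG+Phen arrays (x axis, 1 array each), for 42 mitosis genes and 27 ER chaperones. The mitosis median was 7.18 in 2DG+CC and 8.64 in 2DG+Phen, while the chaperone medians were 8.97 and 9.49; poly-A scaling widens both gaps by 0.60.

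The sensors and transcription factors of the UPR differed gene by gene. Of 23 measured, 2 were higher and 3 lower (1 and 6 on the poly-A scale). The median was 0.01 and turned negative under each other scaling. It is the value of HSPA5, a chaperone gene that this list also holds. EIF2AK3, which encodes PERK, read 6.37 in control cells, 6.38 with CC, 6.05 with VST, 6.50 with Phen, 6.86 in 2DG, 8.43 in 2DG+CC, 2.94 in 2DG+VST and 4.83 in 2DG+Phen. It was thus above every other array in 2DG+CC and below the arrays without inhibitor in 2DG+Phen, a difference of 3.60. ERN1, which encodes IRE1, differed by 1.52, but by −0.36 on its dimmer probe set. ATF6 differed by 0.13 and ATF4 by 0.27, both negative on the poly-A scale.

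DDIT3, which encodes CHOP, a transcription factor downstream of ATF4, was on the other side. It read 6.33 in control cells, 8.42 with CC, 9.30 with VST, 7.53 with Phen, 8.83 in 2DG, 6.77 in 2DG+CC, 8.72 in 2DG+VST and 9.80 in 2DG+Phen. The phenformin array in 2DG was the highest of the 8 and the compound C array the second lowest, and the difference was −3.03 in 2DG and 0.89 in normal growth. MBTPS2, a protease that takes part in cutting ATF6, differed by −2.65. XBP1, whose mRNA IRE1 splices, read 6.91 in control cells, 7.94 in 2DG, 6.44 in 2DG+CC, 6.37 in 2DG+VST and 8.32 in 2DG+Phen, a difference of −1.87.

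HSPA5 and XBP1 both carry an ER stress response element (ERSE) just before their start, the element that NF-Y and ATF6 bind, and they are set side by side because their differences were unlike. The letters searched were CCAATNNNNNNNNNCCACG on both strands, found in 10 of 7077 promoters of measured genes. The 150 bases before the start are at chr9:125241344-125241493 (minus strand) for HSPA5 and chr22:28800570-28800719 (minus strand) for XBP1, with the fixed letters of the element in capitals.
HSPA5: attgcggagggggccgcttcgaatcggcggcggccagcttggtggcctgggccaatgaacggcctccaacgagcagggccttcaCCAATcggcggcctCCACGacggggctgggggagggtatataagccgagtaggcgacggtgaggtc
XBP1: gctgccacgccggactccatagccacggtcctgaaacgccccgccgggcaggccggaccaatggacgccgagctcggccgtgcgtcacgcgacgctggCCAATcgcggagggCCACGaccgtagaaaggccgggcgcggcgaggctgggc
The element begins 66 bases before the start of HSPA5, which differed by 0.01 in 2DG, and 52 bases before that of XBP1, which differed by −1.87.

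In ER translocation, degradation and export 5 of 47 genes (10.6%) were higher, near the 11.7% of all genes, and 1 was lower, with a median of 0.11. On the poly-A scale the balance was the reverse, with 1 higher, 12 lower and a median of −0.50. SEC24A, a coat protein of export vesicles, differed by 2.06, and SURF4 and SEC61A1, a cargo receptor and the translocation channel, by 1.19 and 1.14. Other probe sets of SEC24A, SURF4 and SEC61A1 reached down to 0.59, −0.72 and −0.02. BET1, a SNARE of ER to Golgi transport, differed by −1.66.

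Of 16 amino acid transporters, 6 (37.5%) were at least 2-fold higher with compound C, beside 11.7% of all genes, and 1 was lower, with a median of 0.53. Scaled on poly-A controls, 5 were higher and 3 lower, with a median of −0.08. SLC38A2, a carrier of neutral amino acids, read 11.00 in control cells, 11.44 with CC, 11.11 with VST, 11.21 with Phen, 11.70 in 2DG, 11.26 in 2DG+CC, 5.98 in 2DG+VST and 6.35 in 2DG+Phen. The 2DG+Phen and 2DG+VST arrays were far below the other 6, among which 2DG+CC lay, and the 3 probe sets gave 3.41 to 4.91. The cystine carrier SLC7A11 and the glutamate carrier SLC1A3 both differed by 2.09. SLC7A1, a carrier of basic amino acids, differed by 2.06 on its brightest probe set and −0.44 and −0.85 on 2 dimmer ones. Of 14 enzymes of amino acid and one-carbon synthesis, 2 were higher and 0 lower (2 and 1 on the poly-A scale), PSPH by 1.70 and PSAT1 by 1.6, both of serine synthesis. Of 17 tRNA synthetases, 0 were higher and 2 lower, FARSA by −1.64 and AARS1 by −1.07, and on the poly-A scale 4 were lower.

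Regulators and secreted factors downstream of ATF4 and CHOP had 4 of 21 (19.0%) higher, beside 11.7% of all genes, and 1, DDIT3, lower. The poly-A scale gave 3 higher and 5 lower. The median was 0.17 (−0.44 on the poly-A scale, and −0.04 on the median of each gene's probe sets). DDIT4, an inhibitor of the kinase complex mTORC1, read 6.45 in control cells, 10.01 with CC, 10.73 with VST, 8.26 with Phen, 8.65 in 2DG, 10.37 in 2DG+CC, 5.19 in 2DG+VST and 5.54 in 2DG+Phen. It was below control in 2DG+Phen and above 2DG alone in 2DG+CC, a difference of 4.82. The angiogenic factor VEGFA differed by 2.82, with 1.04 as the lowest of its 4 probe sets, and the hormone STC2 by 3.30, but by −0.26 on its other probe set.

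The probe sets that 2DG itself had raised at least 2-fold over control numbered 494. Of these, 83 (16.8%) were at least 2-fold higher with compound C than with phenformin and 61 (12.3%) lower, beside 13.4% and 14.0% of all, with a median of 0.12 (negative on the poly-A scale). Apart from DDIT3 and DNAJB9, the genes of this group most below phenformin were the deacetylase HDAC9 (−3.81, and 0.46 on its other probe set), the kinase IRAK2 (−3.08), the acetyl-CoA carrier SLC33A1 (−2.32 or lower, with −0.42 as the highest of its 3 probe sets), CNIH3 (−1.43 or lower), the actin regulator DAAM1 (−2.48, and −0.37 on its other probe set) and EVI2A (−2.23). Apart from DDIT4 and STC2, those most above it were the arrestin relative ARRDC4 (at least 4.40), DRC9 (at least 3.22), the exchange factor TIAM2 (3.65), the cytoskeletal protein TES (3.54, and 2.27 on its other probe set), the haem oxygenase HMOX1 (3.47) and ZNF420 (2.82, and −1.74 on its other probe set). Of 392 probe sets that 2DG had lowered, 53 (13.5%) were higher and 117 (29.8%) lower.

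**Figure D3:**
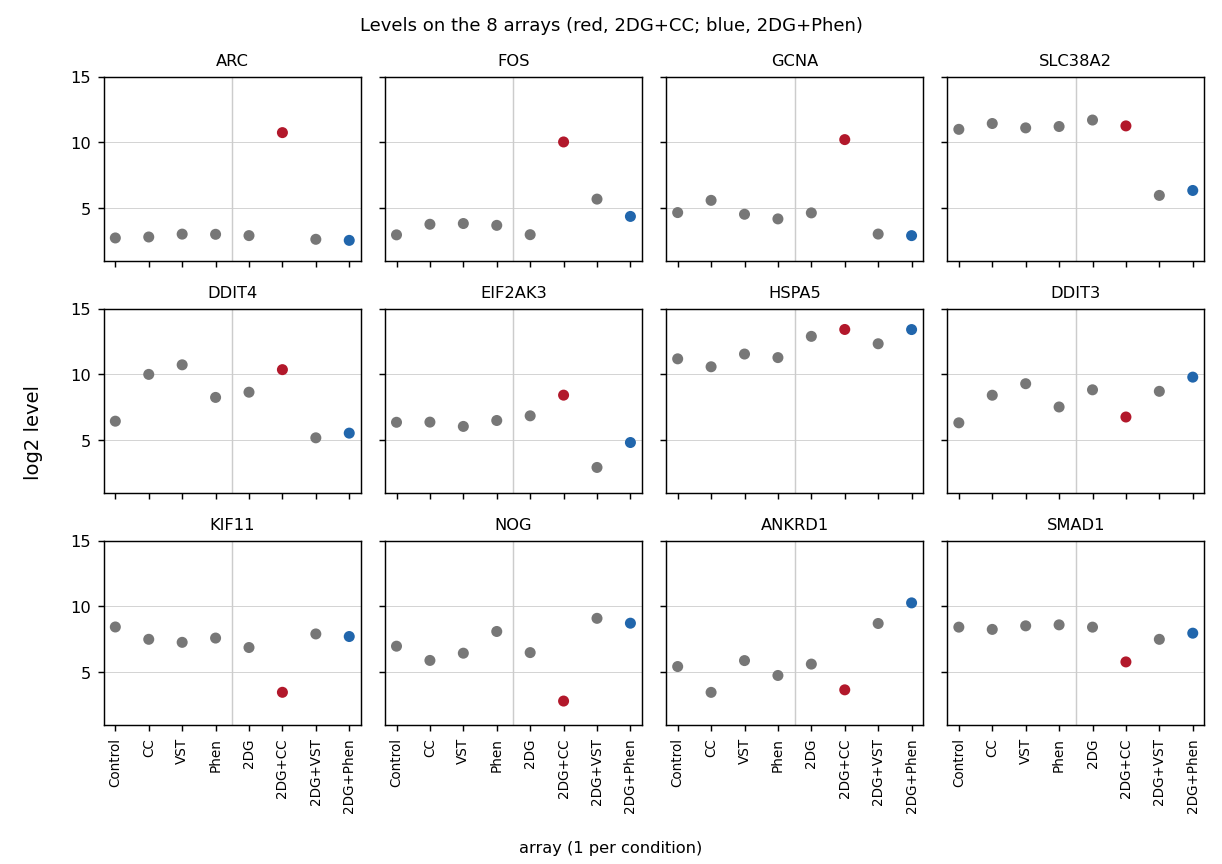
Log2 level (y axis) of 12 genes on the 8 arrays (x axis, 1 per condition), with 2DG+CC in red, 2DG+Phen in blue and the grey line between arrays without and with 2DG. ARC, FOS and GCNA are high with 2DG+CC, SLC38A2, DDIT4 and EIF2AK3 are low with 2DG+Phen and 2DG+VST, KIF11, NOG and SMAD1 are low with 2DG+CC, and HSPA5 is at 13.42 and 13.41; poly-A scaling lowers the red points against the blue by 0.60.

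Immediate early genes, which cells transcribe within minutes of a stimulus, held the largest difference of the comparison. Of 20 measured, 8 were at least 2-fold higher with compound C and 5 lower, shares of 40% and 25% beside 11.7% and 13.7% of all genes. On the poly-A scale the balance turned, with 4 higher and 5 lower. The median was 0.60 (−0.01 on the poly-A scale) and −0.21 in normal growth. ARC, an activity-regulated cytoskeletal protein, read 2.75 in control cells, 2.82 with CC, 3.04 with VST, 3.02 with Phen, 2.92 in 2DG, 10.75 in 2DG+CC, 2.64 in 2DG+VST and 2.56 in 2DG+Phen. It was not above background on any array but that of 2DG+CC, so the difference was at least 7.47. FOS, a subunit of the transcription factor AP-1, read 2.98 in control cells, 3.78 with CC, 3.84 with VST, 3.70 with Phen, 3.0 in 2DG, 10.04 in 2DG+CC, 5.70 in 2DG+VST and 4.38 in 2DG+Phen, a difference of 5.66. FOSL2, a relative of FOS, differed by 3.95, but by −0.70 on another probe set, and the nuclear receptor NR4A2 by at least 1.88. The 5 that were lower, named after their values were seen, were CCN1 (−1.74), MYC (−1.65), FOSL1 (−1.26), MAFF (−1.19) and JUN (−1.10).

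Genes of feedback on the kinase ERK had 4 of 18 higher and 5 lower (2 and 7 on the poly-A scale). The phosphatases DUSP7 and DUSP8 differed by 2.18 and 2.03, the transcription factor ETV1 by −2.10 and the phosphatase DUSP1 by −1.69. Another probe set of DUSP8, with a higher mean over the arrays but below the limit of 6 on each, gave 0.52. Among p53 pathway genes, 6 of 23 (26.1%) were higher and 3 (13.0%) lower, beside 11.7% and 13.7% of all genes, but on the poly-A scale 3 were higher and 8 lower. The list median was −0.13 (−0.73 on the poly-A scale, and 0.17 without probe sets that may match several transcripts). GADD45B, a stress sensor protein, read 7.81 in control cells, 6.96 in 2DG, 12.40 in 2DG+CC, 9.90 in 2DG+VST and 9.01 in 2DG+Phen, a difference of 3.39 (2.69 to 3.42 over 4 probe sets). The phosphatase PPM1D differed by 1.67 and the kinase PLK3 by −3.03.

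After ARC, the genes furthest above phenformin were GCNA, a germ cell peptidase (at least 6.94), ARID5B, a DNA-binding protein (at least 5.94), and EID3 (at least 4.73). Behind FOS came DCAF4L1 (at least 4.68), the tetraspanin TSPAN13 (at least 4.66), the aldehyde dehydrogenase ALDH8A1 (at least 4.26), the probe set annotated to MIR3682 (at least 4.20; its mature miRNA was not matched) and LOC100422526 (at least 4.41). LINC00326 differed by 5.27, the phosphatase PTPRE by 5.00 and the zinc finger protein ZNF12 by 4.94 (3.33 as the lowest of its 4 probe sets). GCNA read 4.67 in control cells, 5.60 with CC, 4.55 with VST, 4.19 with Phen, 4.65 in 2DG, 10.22 in 2DG+CC, 3.04 in 2DG+VST and 2.92 in 2DG+Phen.

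Many probe sets were high on the 2DG+CC array alone. There 52 probe sets were at 6 or more while all other 7 arrays were under 4, against 0 to 2 probe sets for each other array. In the other direction, 46 were under 4 on that array and at 6 or more on the other 7, against 0 or 1. The 52 name 34 genes with a RefSeq position, among them ARC, EID3, DCAF4L1, TSPAN13, ALDH8A1, LPAR6 and CLEC4A, and also KHDRBS1, GART, CUL4A and NPC1. A gene is named here by any such probe set, and its other probe sets were not considered. The gene as a whole may thus be read on other arrays too. Of the 34, 8 (23.5%) lie wholly inside the span of a protein-coding gene, such as EID3 in TXNRD1, LPAR6 in RB1 and LOC100422526 in ATF6, against 2.55% of 8426 measured genes with a position. The 8 also hold ABCF2 inside ABCF2-H2BK1, an entry that shares its name, MIR3682 inside GPR75-ASB3 and SNORA74A inside MATR3, so the share depends on the annotation. The probe sets that name the 34 reached the limit of 6 only through the 2DG+CC array, unlike those of the measured genes as a whole. The 2 shares were not tested against each other. Strand was not considered. Among the host genes, TXNRD1 (−0.19), RB1 (−0.56) and ATF6 (0.13, negative on the poly-A scale) were within 2-fold on the deposited values. The other hosts are not given here.

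Genes of TXNIP and its arrestin relatives, which limit glucose uptake and are driven by Mondo transcription factors, make up a list of which 8 were measured. Of these, 5 were higher, beside 11.7% of all genes, and 1 lower, while on the poly-A scale 3 were higher and 1 lower. The median was 1.27 (0.67 on the poly-A scale) and 0.36 in normal growth. TXNIP read 5.32 in control cells, 7.48 with CC, 4.33 with VST, 5.05 with Phen, 8.79 in 2DG, 9.06 in 2DG+CC, 6.97 in 2DG+VST and 7.07 in 2DG+Phen. Compound C was above phenformin by 1.99 in 2DG and by 2.42 in normal growth. MLX, the partner of the Mondo factors, differed by −1.83, and MNT, which also pairs with MLX, by 1.94.

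Splicing regulators of the SR family and their kinases had 6 of 27 (22.2%) higher and 2 (7.41%) lower, beside 11.7% and 13.7% of all genes, with a median of 0.01. On the poly-A scale the balance turned, with 3 higher, 5 lower and a median of −0.59. TRA2B, which binds exonic enhancers, read 11.98 in control cells, 11.38 in 2DG, 12.63 in 2DG+CC, 8.79 in 2DG+VST and 8.58 in 2DG+Phen, and its 3 probe sets differed by 1.78 to 4.05. Its paralog TRA2A differed by 2.75 on the brightest probe set and −1.32 and −1.12 on the others. SRSF6 differed by 1.71 and the kinase CLK2 by −1.75. The probe sets of TRA2A thus lay on both sides of 2-fold.

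Genes of BMP signalling were on both sides. BMP receptors phosphorylate SMAD1, SMAD5 and SMAD9, which then drive targets such as the ID genes and the secreted antagonist noggin (NOG). Of 20 measured, 7 were lower with compound C and 3 higher (9 and 1 on the poly-A scale), with a median of −0.32 (−0.92 on the poly-A scale) and −0.03 in normal growth. NOG read 6.98 in control cells, 5.9 with CC, 6.45 with VST, 8.10 with Phen, 6.50 in 2DG, 2.81 in 2DG+CC, 9.10 in 2DG+VST and 8.73 in 2DG+Phen. It was not above background in 2DG+CC and above every normal growth array in 2DG+Phen, a difference of −5.49 or lower. SMAD1 read 8.43 in control cells, 8.26 with CC, 8.53 with VST, 8.6 with Phen, 8.43 in 2DG, 5.79 in 2DG+CC, 7.5 in 2DG+VST and 7.97 in 2DG+Phen. It differed by −2.18 (−2.03 on its dimmer probe set), and in normal growth by −0.34. ID1 and ID3, direct targets of the pathway, gave −1.16 and −1.55 in 2DG and −0.89 and −2.49 in normal growth, and ID2 gave 0.88 and −0.90. These 3 were named after their values were seen. In 2DG all 3 were higher on the 2DG+Phen array than in 2DG alone, ID3 at 9.23 against 7.66 and 7.68 in 2DG+CC.

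SMAD9 differed by −2.86, SMAD5 by 0.75 (−0.69 being the lowest of its 5 probe sets), and the ubiquitin ligase SMURF1 by 2.63 (0.26 and 0.39 on its dimmer probe sets).

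The subunits of AMPK and its upstream kinases had 1 of 15 past 2-fold (1 higher and 4 lower on the poly-A scale), MAP3K7, by 1.79 (−0.12 being the lowest of its 4 probe sets), and a median of −0.23. PRKAA1, a catalytic subunit, differed by 0.84 and STK11, which encodes LKB1, by 0.36, the latter negative on the poly-A scale. CAMKK2, another upstream kinase, gave −0.93, CAB39 and STRADA, partners of LKB1, 0.91 and −0.90. EIF4EBP1, the translation repressor 4E-BP1, gave −0.14.

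Among genes of insulin signalling and FOXO targets, 4 of 17 were higher and 4 lower (4 and 6 on the poly-A scale). RICTOR, a subunit of mTORC2, read 6.03 in control cells, 6.66 in 2DG, 7.51 in 2DG+CC, 2.62 in 2DG+VST and 3.67 in 2DG+Phen, a difference of 3.84. TSC1, a brake on mTORC1, differed by 2.87, the receptor IGF1R by −2.62 (0.50 being the highest of its 3 probe sets) and the adaptor IRS1 by −1.78 or lower.

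Targets of the mechanical and serum regulators YAP and SRF had 2 of 25 higher and 6 lower (1 and 8 on the poly-A scale), with a median of 0.00 that turned negative under each other scaling. ANKRD1, a target of YAP, was the gene furthest below phenformin, and read 5.44 in control cells, 3.47 with CC, 5.89 with VST, 4.76 with Phen, 5.62 in 2DG, 3.67 in 2DG+CC, 8.71 in 2DG+VST and 10.27 in 2DG+Phen. Its difference of −6.61 had parts on both arrays, since 2DG+Phen lay above and 2DG+CC below every array but CC. AMOTL2, a regulator of YAP, differed by −2.44 and the kinase LATS2, which restrains YAP, by 3.14 (0.27 to 4.18 over its 3 probe sets).

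After ANKRD1 and NOG, the genes furthest below phenformin were the adhesion molecule AMIGO2 (−5.21), TRIM61 (−3.73 or lower, and −0.36 on its other probe set), VMP1, an ER protein of autophagy (−4.49), MED7, a subunit of Mediator (−4.24), and KIF11. They were followed by GORAB, a golgin (−3.16 or lower), the lipoyltransferase LIPT1 (−3.98 or lower), and the transcription factors RUNX2 (−4.08), BCL6 (−3.99), ZBTB24 (−3.87, with 0.35 as the highest of its 3 probe sets) and ZNF217 (−3.84). Also in this group were the kinase DYRK2 (−3.90, with −2.22 as the highest of its 3 probe sets) and the nucleotidase ENTPD7 (−3.84, and −0.20 on its other probe set). AMIGO2 read 10.67 in control cells, 10.30 with CC, 11.27 with VST, 10.79 with Phen, 10.97 in 2DG, 6.15 in 2DG+CC, 11.08 in 2DG+VST and 11.36 in 2DG+Phen, and was low in 2DG+CC alone.

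Death regulators of the BCL2 family and death receptors had 2 of 14 higher and 2 lower (0 and 4 on the poly-A scale). CFLAR, which blocks caspase 8 at death receptors, differed by −2.57 (−2.53 on its other probe set), and the survival protein BCL2L1 by −1.82 (0.10 on its other probe set). The survival protein BCL2A1 gave 1.41 and the killer protein BCL2L11 1.09, with 3.39 as the highest of its 4 probe sets.

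Of 33 autophagy and lysosome genes 5 (15.2%) were higher and 2 (6.06%) lower, beside 11.7% and 13.7% of all genes, with a median of 0.15. The poly-A scale gave 3 higher and 5 lower, with a median of −0.45. ATG16L1, which helps to attach LC3 to membranes, differed by 2.22, the lysosomal proton pump subunit ATP6V1B2 by 2.05 and ATG14, of the lipid kinase complex of autophagy, by 1.82. MITF, a transcription factor of lysosomal genes, differed by −2.59. Among 32 proteasome subunits, 2 were higher, PSMD12 by 1.62 and PSMB8 by 1.27, and 0 lower, but on the poly-A scale 1 was higher and 6 lower. Of 21 genes in a list of heat shock proteins, 2 were higher, DNAJB6 by 2.72 and HSPA13 by 1.61 (−2.19 on its other probe set). In the same list 1 was lower, HSPA4L by −1.08 (2 higher and 6 lower on the poly-A scale).

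NRF2 targets and glutathione genes had 2 of 23 higher, HMOX1 and SLC7A11, and 2 lower (2 and 5 on the poly-A scale). The latter were NFE2L2 (−1.45), which encodes NRF2 itself, and its inhibitor KEAP1 (−1.05). Of 10 histone genes 3 were higher and 0 lower, H2AC8 by 2.07, H2AX by 1.87 and H2AC6 by 1.25, with a list median of 0.55 (2 higher, 1 lower and a median of −0.05 on the poly-A scale). Of 26 genes of cholesterol and fatty acid synthesis 3 were higher and 3 lower (1 and 5 on the poly-A scale). The mevalonate pathway enzyme PMVK differed by 1.81 and the later enzyme LSS by 1.44, while IDI1 and SC5D differed by −2.02 (0.69 as the highest of 3 probe sets) and −1.88. HIF-1 targets had 1 of 21 higher, VEGFA, and 3 lower (1 and 6 on the poly-A scale). Among 8 interferon-induced genes, ISG15 and IFI35 were higher by 1.14 and 1.2, and IFIT5 was lower, at −1.10 or lower. IFIT3 was at −0.23 or lower, which leaves its side of 2-fold unknown. The poly-A scale left 0 of the 8 higher.

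In iron and metal handling 7 of 16 genes (43.8%) were lower, beside 13.7% of all genes, and 1, HMOX1, higher, with a median of −0.79. The poly-A scale gave 11 lower and 1 higher. Metallothioneins, small proteins that bind zinc and copper, made up 5 of the 7, named after their values were seen. MT1F read 10.58 in control cells, 10.67 in 2DG, 11.36 in 2DG+CC, 12.46 in 2DG+VST and 12.76 in 2DG+Phen, a difference of −1.40, and MT1H, MT1E, MT1X and MT1G gave −1.25, −1.24, −1.22 and −1.18. Their sequences are near-identical, so probe sets may share signal. SLC11A2, an iron transporter, gave −1.49, and −0.395 on its other probe set.

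Ribosome biogenesis had 1 of 39 genes higher and 9 lower (0 and 14 on the poly-A scale), with a median of −0.08, against 0.54 in normal growth. RRS1, a ribosome assembly factor, read 10.11 in control cells, 9.95 in 2DG, 7.29 in 2DG+CC, 10.13 in 2DG+VST and 9.82 in 2DG+Phen, a difference of −2.53. BYSL, NAT10 and NOC3L, which act in the same process, differed by −1.86, −1.67 and −1.52. The 39 cytosolic ribosomal proteins measured all lay between −0.13 and 0.35, with a median of 0.02. The 33 subunits of respiratory complex I, the complex phenformin inhibits, and 35 of complexes II to V had 0 past 2-fold in either direction, with medians of 0.27 and 0.13. On the poly-A scale both medians are negative and 2 and 1 subunits were lower. Of 22 genes of glycolysis and glucose uptake, 1 was higher and 2 lower. They were the glucose transporter SLC2A3 (2.52, but −1.52 on another probe set) and the regulatory enzymes PDK1 (−1.07) and PFKFB4 (−1.01), and on the poly-A scale 1 was higher and 5 lower.

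**Figure D4:**
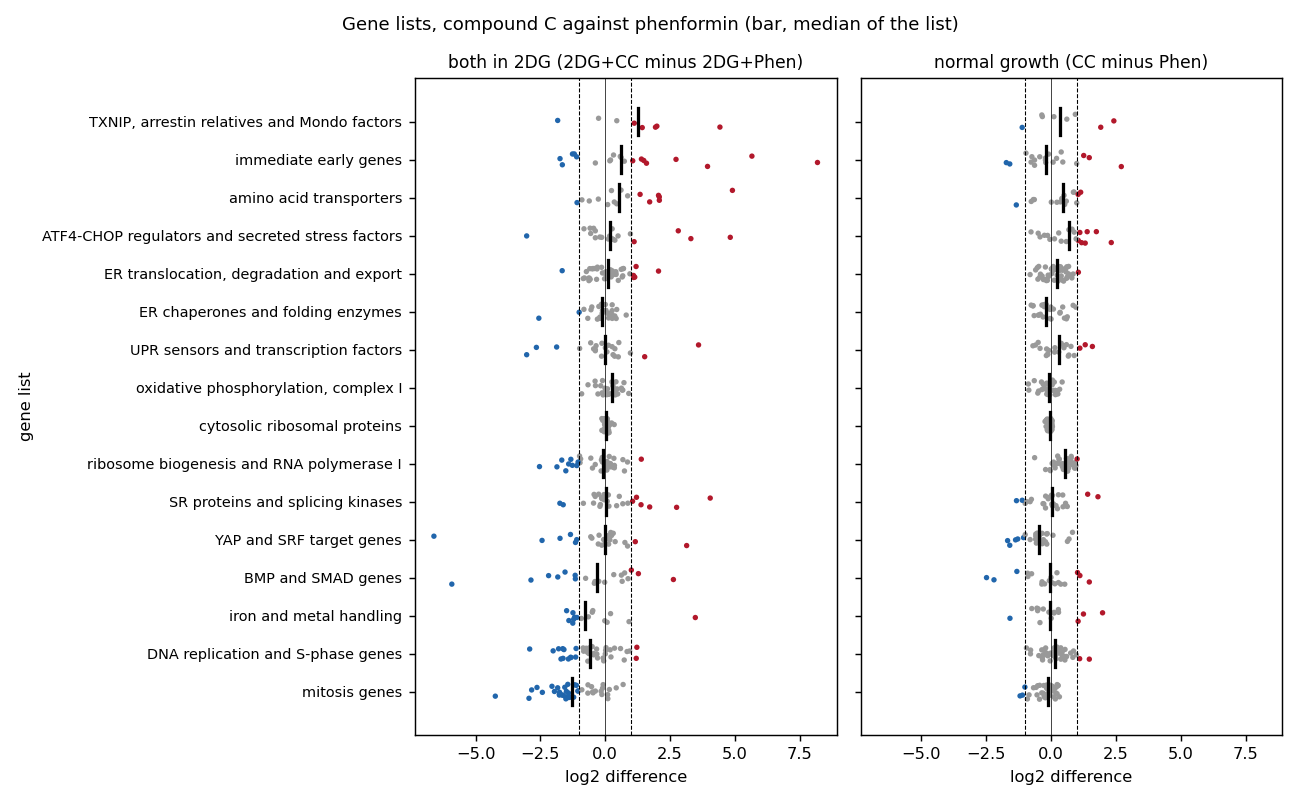
Log2 difference (x axis) of each measured gene of 16 lists (y axis), compound C minus phenformin, in 2DG on the left and in normal growth on the right, with the list median as a black bar, dashed lines at 2-fold, red for higher and blue for lower. Mitosis genes have a median of −1.28 in 2DG and −0.13 in normal growth, and ribosomal proteins lie near 0 in both. Under poly-A scaling the left panel moves down by 0.60, which turns negative every median above 0 there except that of the TXNIP list.

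The same 2 compounds were compared in normal growth on arrays that the 2DG comparison does not use. There 1013 probe sets (6.53%) were at least 2-fold higher with compound C and 671 (4.33%) lower, so that 60.2% of those past 2-fold were higher. That share was 44.2% with each array centred, 48.7% after quantile normalization and 79.4% on the poly-A scale. Over the 15503 probe sets the differences between the media had a Pearson r of 0.198 and a Spearman rho of 0.160, a description over probe sets that are not independent. Of the 2072 probe sets higher in 2DG, 336 were also higher in normal growth (16.2% of the first list and 33.2% of the second), and of the 2174 lower, 150 were also lower (6.90% and 22.4%). Opposite calls were made for 45 and 104.

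The chemokines CCL20 and CXCL3 were higher with compound C in both media, while the chemokine CXCL8 and the cytokine IL6 were lower in 2DG (−1.78 and −1.05) and higher in normal growth (2.26 and 1.45). CXCL8 and IL6 were named after their values were seen. CCL20, which attracts lymphocytes, read 3.83 in control cells, 9.09 with CC, 4.09 with VST, 2.79 with Phen, 2.93 in 2DG, 8.52 in 2DG+CC, 3.75 in 2DG+VST and 4.93 in 2DG+Phen. It was high on both arrays with compound C and on no other. CXCL3, which attracts neutrophils, differed by 2.36 in 2DG and 2.53 in normal growth. Of 13 inflammatory genes, 3 were higher and 4 lower in 2DG (3 and 6 on the poly-A scale), with a median of −0.23 (0.69 without probe sets that may match several transcripts), and in normal growth 7 were higher, beside 5.53% of all genes, and 0 lower, with a median of 1.2. The NF-kappaB inhibitors TNFAIP3 and NFKBIA differed by −2.23 and −1.83 in 2DG, with −0.54 on the other probe set of TNFAIP3. Matrix genes had 3 of 28 higher and 3 lower in 2DG (1 and 9 on the poly-A scale), and 0 higher and 10 lower in normal growth, beside 4.38% of all genes lower. There fibronectin (FN1) differed by −4.04, against −0.72 in 2DG.

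**Figure D5:**
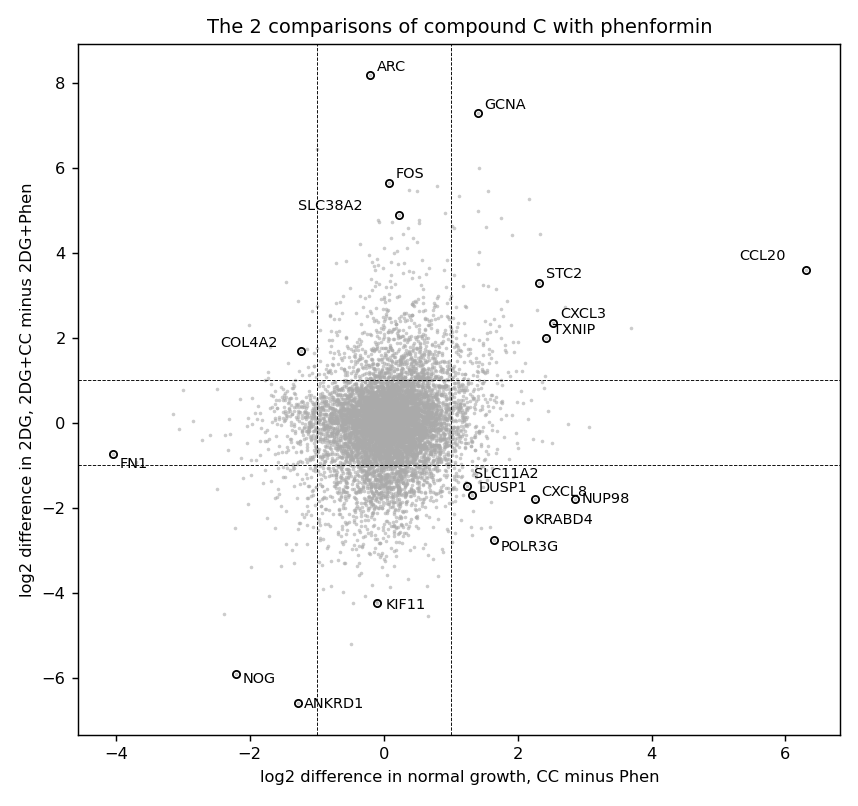
Log2 difference of compound C minus phenformin in 2DG (y axis) against the same in normal growth (x axis) for each of the 8429 genes, from 4 arrays of which none is shared, with dashed lines at 2-fold. ARC, FOS, SLC38A2 and KIF11 lie near 0 in normal growth, CCL20 is high in both, and NUP98, KRABD4 and POLR3G lie on opposite sides; poly-A scaling moves all points down by 0.60 and right by 0.18.

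Set against 2DG alone, an array both differences share, the probe sets past 2-fold had several origins. Of the 2072 higher with compound C than with phenformin, 660 were at least 2-fold above 2DG alone with compound C and within 2-fold of it with phenformin, 726 were within 2-fold with compound C and at least 2-fold below with phenformin, and 146 were past 2-fold in opposite directions. PPM1D belongs to the first kind, SLC38A2 to the second and DDIT4 to the third. Of the 2174 lower, 1049 were below 2DG alone with compound C only, 345 above it with phenformin only, 365 below it with both, and 63 past 2-fold in opposite directions. KIF11 and SMAD1 are of the first kind.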

How the data were processed

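The deposited values are log2 intensities of 8 arrays, which per the labels the authors made with RMA (background correction, normalization between arrays and summary of each probe set); the software version is not given in the sources used here. They were used as deposited. Probe sets were named by the platform annotation. Of those kept, 13771 carried 1 symbol, 769 several and 963 none, and the last 2 kinds were counted but named no gene. A gene was read on its brightest kept probe set.

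Differences were taken between 2 single arrays, counted from 2-fold, and not tested. The members, the 40 gene lists and the bounds were chosen with earlier results of these data known. Genes named were the 15 furthest in each direction, up to 4 of each list, 12 of the UPR, AMPK and BMP pathways, the 8 furthest in each direction among those raised by 2DG, and the 8 whose differences in the 2 media were furthest apart each way. Others are marked as chosen after their values were seen.

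Promoters were RefSeq's, of GRCh38.p14. Alternatives were fold, expression limit, scaling, probe sets and counting by genes. The counting code was run on simulated arrays with known large differences and little noise. That checks the code only, not the reliability of the counts. Computation used pandas 2.3.3 and numpy 2.4.6 under Python 3.11.15, correlations scipy 1.17.1, and figures matplotlib 3.10.9.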

Additional observations from a re-analysis of the deposited data

Results flagged for a closer look

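Among the named genes and the members of the gene lists, 10 differed between compound C and phenformin by at least 2-fold in 2DG and by at least 2-fold the opposite way in normal growth. Over all 8429 genes this held for 22 that were higher in 2DG and 55 that were lower. CXCL8, IL6, KLF2 and ARRDC3 were chosen after their values were seen. The difference between the media was not tested, since each value rests on 1 array against 1, and over all probe sets 45 were higher in 2DG and lower in normal growth and 104 the reverse. Lower in 2DG and higher in normal growth were POLR3G, a subunit of RNA polymerase III (−2.76 and 1.65), KRABD4 (−2.27 and 2.15), the nucleoporin NUP98 (−1.79 and 2.86), the chemokine CXCL8 (−1.78 and 2.26), the phosphatase DUSP1 (−1.69 and 1.32), the iron transporter SLC11A2 (−1.49 and 1.25) and the cytokine IL6 (−1.05 and 1.45). Higher in 2DG and lower in normal growth were the collagen COL4A2 (1.69 and −1.24), the arrestin relative ARRDC3 (1.12 and −1.11) and the transcription factor KLF2 (1.06 and −1.72). On the poly-A scale COL4A2 kept its side of 2-fold in 2DG and ARRDC3 and KLF2 did not. The other probe set of SLC11A2 gave −0.395 in 2DG. NUP98 read 7.51 in control cells, 7.58 with CC, 6.22 with VST and 4.72 with Phen, and 6.57 in 2DG, 6.44 in 2DG+CC, 8.09 in 2DG+VST and 8.23 in 2DG+Phen, so the phenformin arrays were the lowest and the highest of the 8.

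Outside the genes, the median of the poly-A control probe sets was 1.36 above the control array on the array of 2DG with compound C. It was the highest of the 8 arrays.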

How the results depend on the processing

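In 2DG the counts of probe sets higher and lower with compound C were 3645 and 3679 at 1.5-fold, 1030 and 1016 at 3-fold, 1006 and 4640 with arrays scaled on the poly-A controls, 1316 and 1316 without probe sets that may match several transcripts, 985 and 1153 as genes on the brightest probe set, and 986 and 1144 as genes on the median of their probe sets. With no expression limit 3135 were higher. In normal growth they were 2882 and 1836 at 1.5-fold, 241 and 146 at 3-fold, 1635 and 424 on the poly-A scale, 466 and 369, or 442 and 336, as genes, with 663 higher at a limit of 7, 1805 higher with no limit and 420 lower without probe sets that may match several transcripts. The other 26 counts stayed within 1.5 times. SLC7A1 turned to −0.44 and ZNF420 to −1.74 without such probe sets, and HSPA13 (1.61) to −0.29 and TRA2A to −1.12 on the median of their probe sets. Of 36 list medians 20 changed sign on the poly-A scale, 8 on the hybridization scale, 6 with centring and 4 after quantile normalization. Of 190 named genes 12 changed sign on the poly-A scale. The cause was not tested.

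No paired analysis was possible because each condition has 1 array. For 87 genes different probe sets were past 2-fold in both directions. Array signal near background limits differences of dim genes to bounds, and 1 array per condition leaves every value without an error.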
